A study of Arabidopsis thaliana with 248 samples.

Results

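The LSD1-like histone demethylase family of Arabidopsis thaliana was followed across the mRNA-seq of crosses between H3K9 methylation mutants. The family was taken by its gene identifiers, LDL1 (AT1G62830), LDL2 (AT3G13682), FLD (AT3G10390), and LDL3 (AT4G16310), which are 4 of the 33602 genes in each of the 2 count tables used. All 4 were counted on their sense strand in both tables, and the rule names genes without using a measured value. The experiment with ldl2 held 27 libraries, with 3 libraries for each of 9 genotypes. These were WT (Columbia), the suvh4/5/6 triple mutant of 3 H3K9 methyltransferase genes, the cmt2/3 double mutant of 2 DNA methyltransferase genes, their F1 hybrids sxc (suvh4/5/6 as seed parent) and cxs (cmt2/3 as seed parent), and each of these 4 mutant backgrounds with ldl2. The F1 plants carried the SUVH and CMT mutations in the heterozygous state, and the F1 plants with ldl2 were homozygous for ldl2, since both parents carried it. No genotype in this experiment carried ldl2 in an otherwise WT background. The experiment with ashh3 held 9 libraries, with 3 libraries for each of WT, cxs, and cxs ashh3, in which both parents carried the ashh3 mutation. Every library came from whole seedlings grown for 2 weeks, so fewer cells of a type and less RNA per cell cannot be told apart. The study's methods describe the 3 libraries of a genotype as independent biological replicates.

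LSD1-like proteins are flavin-dependent amine oxidases that remove methyl groups from lysine 4 of histone H3. LDL1 and LDL2 act on H3K4me1 and H3K4me2, and LDL2 removes H3K4me1 from genes and transposons that carry H3K9me2, a step that precedes their transcriptional silencing. FLD belongs to the autonomous flowering pathway and keeps the floral repressor gene FLC at a low level, where LDL1 and LDL2 act in part redundantly with it. LDL3 removes H3K4me2. ASHH3 is an H3K36 methyltransferase that acts against LDL2 in the pathway studied here, and the F1 crosses follow how H3K9me2 and silencing are established again after their loss.

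The 4 genes lie on 3 chromosomes and differ in structure. In the coordinates of the tables (TAIR10), LDL1 spans chr1:23264490-23267202 on the minus strand and has 1 exon. LDL2 spans chr3:4479193-4481509 on the minus strand and has 2 exons. FLD spans chr3:3229293-3232345 on the plus strand, and its 4 annotated transcripts have 2 to 5 exons. LDL3 spans chr4:9218636-9225264 on the plus strand, and its 5 annotated transcripts have 8 to 11 exons. The coding length of the RefSeq model was 2535 bases for LDL1 (844 residues), 2241 for LDL2 (746 residues), 2811 for FLD (936 residues), and 4887 for LDL3 (1628 residues). None of the 4 table spans overlapped another gene of the tables, although a RefSeq transcript of LDL3 ends within AT4G16330, which lies on the opposite strand. There were 6 genes within 1000 bases, the nearest of them AT1G62820 at 140 bases from LDL1, and none of these 6 was called changed in any of the 21 comparisons.

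**Figure D1:**
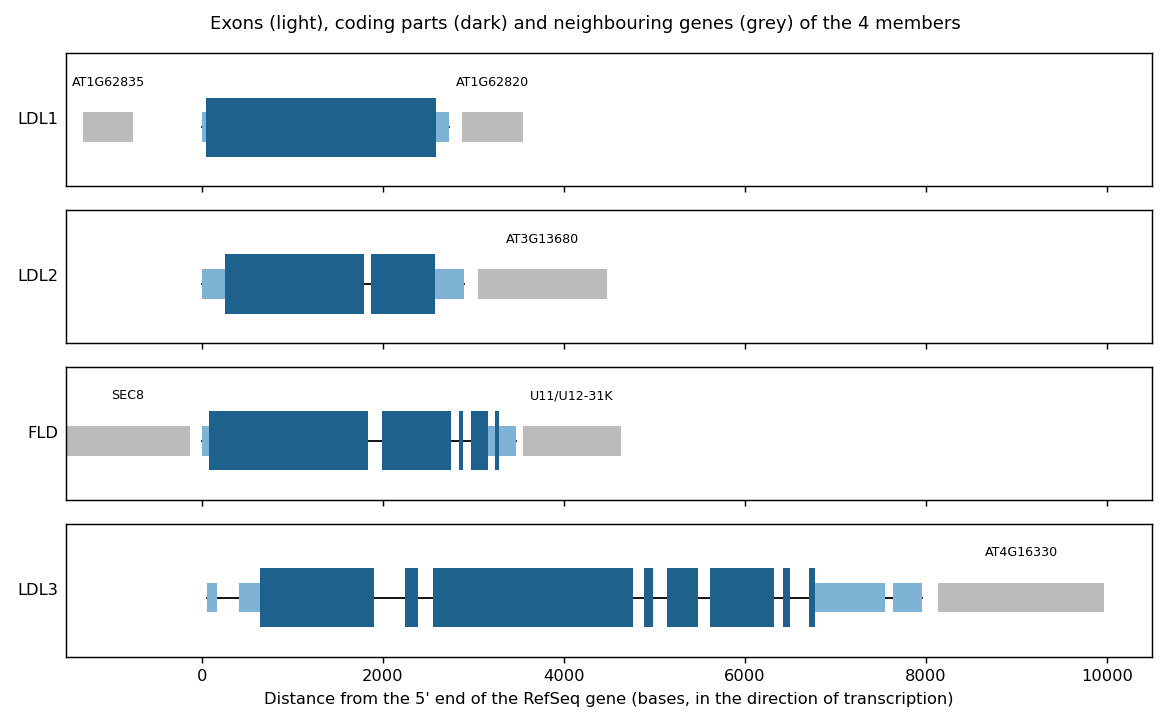
Gene models of LDL1, LDL2, FLD, and LDL3 from RefSeq, with distance from the 5′ end of the gene in bases on the x axis, exons in light blue, coding parts in dark blue, and neighbouring genes in grey. LDL1 has 1 exon, LDL3 is the longest gene, and no neighbour overlaps the transcripts drawn, while a transcript of LDL3 that is not drawn ends within AT4G16330.

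The 150 bases upstream of the annotated 5′ end of each gene (RefSeq, TAIR10.1, gene strand) are shown because the members differ in a promoter motif. Capitals mark site II (TGGGCC on either strand, so GGCCCA when read on the gene strand), an element known from the promoters of growth-related genes.
LDL1: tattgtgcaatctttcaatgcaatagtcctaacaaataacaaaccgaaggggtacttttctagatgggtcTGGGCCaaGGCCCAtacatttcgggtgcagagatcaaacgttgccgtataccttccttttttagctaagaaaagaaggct
LDL2: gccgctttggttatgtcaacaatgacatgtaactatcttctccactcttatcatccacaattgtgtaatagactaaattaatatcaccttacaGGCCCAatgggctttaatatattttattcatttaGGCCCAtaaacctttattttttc
FLD: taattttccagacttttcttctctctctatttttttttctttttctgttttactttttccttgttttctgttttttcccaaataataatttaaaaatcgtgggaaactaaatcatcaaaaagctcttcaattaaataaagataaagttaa
LDL3: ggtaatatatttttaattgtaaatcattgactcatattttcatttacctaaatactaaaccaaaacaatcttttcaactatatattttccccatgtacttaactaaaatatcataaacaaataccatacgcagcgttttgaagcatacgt
These windows are chr1:23267222-23267371 for LDL1, chr3:4481768-4481917 for LDL2, chr3:3228910-3229059 for FLD, and chr4:9217838-9217987 for LDL3. LDL1 held site II on both strands, starting 80 and 72 bases upstream, and LDL2 held it on the opposite strand at 57 and 23 bases upstream. The letters were not in the windows of FLD and LDL3. They were found in 3005 of 26718 upstream windows of the same length (11.2%). The windows of LDL1 and LDL2 had a GC content of 42% and 33.3%, against 23.3% for FLD and 26.0% for LDL3, and the window of FLD lies partly within the neighbouring gene SEC8. The letters TATAAA, AAACCCTA, and CACGTG, each searched on both strands, were in none of the 4 windows and in 32.7%, 2.66%, and 4.69% of all windows.

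Total counts per library were 8448989 to 12942034 where ldl2 was tested and 8252720 to 10656469 where ashh3 was tested. The replicate 2 of cxs ldl2 stood apart. It had a scaling factor of 1.31 against 0.933 to 1.09 in the other 26 libraries, 30088 detected genes against 24637 to 27758, and a summed level of the 3 leaf markers RBCS1A, LHCB1.3, and RCA of 12683 CPM against 24374 to 40925. Where this library moved the value of a member by more than 1.5 times, the value without it is given too, and the part of the leaf markers was not tested. The sum of the 2 root markers was 59.1 to 205 CPM in the experiment with ldl2 and 867 to 1638 CPM in the experiment with ashh3, so levels are compared only within an experiment. Of the mutated genes, SUVH4 and SUVH5 were lower in suvh4/5/6 than in WT (log2 fold change of -1.90 and -2.06), CMT3 was lower in cmt2/3 (-1.87), and SUVH6 in suvh4/5/6 (0.30) and CMT2 in cmt2/3 (-0.55) were not called.

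Per length of transcript, LDL2 had the lowest mRNA level of the family in all 27 libraries of the experiment with ldl2 and in all 9 of the experiment with ashh3. Its level had a median of 2.00 TPM over the 27 libraries (1.16 to 3.69 TPM), whereas the medians were 10.2 TPM for LDL1 (8.45 to 20.01 TPM), 10.8 TPM for FLD (9.68 to 14.0 TPM), and 9.91 TPM for LDL3 (9.17 to 11.0 TPM). The other 3 members were thus close to each other. The 27 libraries include 12 with ldl2, in which the LDL2 median was 1.89 TPM (1.16 to 3.69 TPM). It was 2.39 TPM (1.58 to 2.97 TPM) in the 12 libraries of the same backgrounds without ldl2. In the WT libraries it was 2.24 TPM (2.18 to 2.75 TPM). FLD was the highest member in 20 of the 27 libraries, LDL1 in 5, and LDL3 in 2. Without replicate 2 of cxs ldl2, the highest level was 12.1 TPM for LDL1 and 2.97 TPM for LDL2. In the experiment with ashh3, the medians were 11.4, 2.19, 12.3, and 12.4 TPM for LDL1, LDL2, FLD, and LDL3, and LDL3 was the highest member in 5 of 9 libraries. Over the 9 genotype means of the first experiment, those with ldl2 included, the ratio of the TPM to that of LDL2 was 4.17 to 6.16 for LDL1, 4.41 to 6.79 for FLD, and 3.99 to 6.03 for LDL3. With coding length in place of exon length, the medians were 6.93, 1.60, 7.68, and 8.40 CPM per kilobase for LDL1, LDL2, FLD, and LDL3, and LDL3 then led the family. The 4 genes summed to 29.6 to 36.5 TPM in 26 libraries of the first experiment and to 48.7 TPM in replicate 2 of cxs ldl2. LDL2 took 3.62 to 9.09% of the sum in the 27 libraries, those with ldl2 included.

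**Figure D2:**
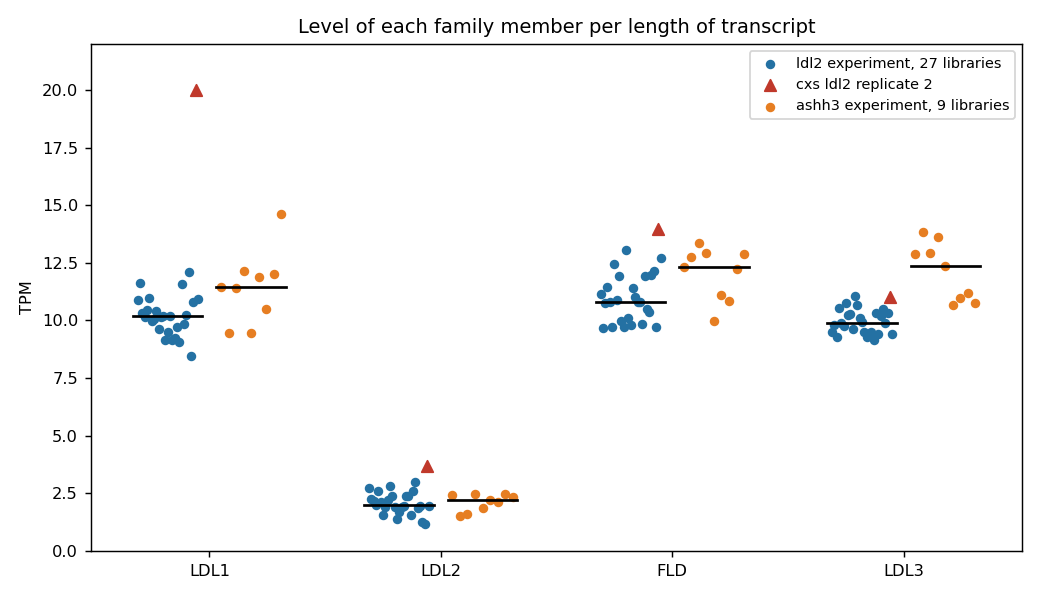
Level of each member in TPM in each library (points) of the experiment with ldl2 (blue) and the experiment with ashh3 (orange), with medians as lines and replicate 2 of cxs ldl2 as a triangle. LDL2 lies at 1.16 to 3.69 TPM in the 27 libraries, below the other 3 members in each of them. The 12 libraries with ldl2 are included.

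In the experiment with ldl2, the SD of the 9 genotype means, each over 3 libraries, was 9.23% of the mean CPM for LDL1, 13.2% for LDL2, 3.68% for FLD, and 4.08% for LDL3. The pooled SD of single libraries within a genotype was 13.9%, 24.1%, 7.99%, and 7.0% for the same genes. Counting error alone was 12.5 to 20.9% of the LDL2 value of a library, from 23 to 64 counts, and 4.40 to 5.47% of the LDL3 value, from 334 to 517 counts. Small differences of LDL2 were therefore not detectable at this depth. When genotypes were ordered by their mean CPM, all neighbours in the order overlapped for every member in this experiment.

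LDL2, the gene that the ldl2 allele disrupts, was still counted in every ldl2 library. In WT it had 4.996, 4.12, and 3.89 CPM, from 53, 42, and 51 counts. The values were 3.46, 4.42, and 3.96 CPM in suvh4/5/6 and 2.80, 3.37, and 4.04 CPM in suvh4/5/6 ldl2. The ranges of this pair overlapped. In cmt2/3 it had 5.18, 4.25, and 3.20 CPM, and in cmt2/3 ldl2 it had 2.62, 3.20, and 3.59 CPM. In sxc the values were 3.47, 3.84, and 4.57 CPM, and those of sxc ldl2 were 3.47, 3.47, and 2.16 CPM, the only one of the 4 pairs in which all libraries with ldl2 lay below all those without it (2.56% of genes with a mean of at least 1 CPM did so in this pair). In cxs the values were 2.84, 4.66, and 5.48 CPM, and in cxs ldl2 they were 2.25, 5.37, and 3.18 CPM, with the highest value in the replicate 2 that stood apart. Over the 12 libraries with ldl2, the lowest, median, and highest values were 2.16, 3.29, and 5.37 CPM (highest 4.04 CPM without that library), and over the 12 libraries of the same backgrounds without ldl2 they were 2.84, 4.10, and 5.48 CPM. The allele is a T-DNA insertion, and its position within the gene is not given in the sources used here, so the counts over the whole gene do not separate RNA from before and after it.

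The effect of ldl2 on the mRNA of the family was tested over the 4 backgrounds together, and none of the 4 members was called (edgeR quasi-likelihood test, Benjamini-Hochberg adjusted p under 0.05 over all genes), against 0.437% of all genes called in this comparison. The estimate for LDL2 was a log2 fold change of -0.32 (SE = 0.15, 95% interval, -0.62 to -0.01), which is a difference of -19.8%, with an edgeR adjusted p of 0.624. Without replicate 2 of cxs ldl2 it was -0.42 (adjusted p = 0.427). It was negative in each background, at -0.21 in suvh4/5/6, -0.43 in cmt2/3, -0.38 in sxc, and -0.25 in cxs, where it was -0.65 without that library (adjusted p = 0.688). The corresponding values over 4 backgrounds were 0.12 for LDL1 (95% interval, -0.04 to 0.28, and 0.07 without that library), 0.09 for FLD (-0.03 to 0.20), and 0.05 for LDL3 (-0.05 to 0.16). Within single backgrounds, 0 of 4 members were called in suvh4/5/6 (0.0238% of all genes called), cmt2/3 (0.0625%), sxc (0.128%), and cxs (0.101%). The 95% intervals of these tests reached from -1.04 to 0.39 for LDL2 and from -0.23 to 0.34 for LDL3. The lower ends for LDL2 were -0.82 in suvh4/5/6, -1.04 in cmt2/3, -0.996 in sxc, and -0.85 in cxs. With all libraries included, a decrease of LDL2 by 1 on the log2 scale thus lay inside the interval in cmt2/3 alone, and close to its end in sxc. In all 21 comparisons together, 3 of 84 tests of members had an unadjusted p under 0.05 (LDL2 over the 4 backgrounds, LDL1 between the reciprocal F1, and LDL3 between cxs ashh3 and WT), and the smallest adjusted p was 0.222. The 84 tests share libraries, and the share of all genes with an unadjusted p under 0.05 was not counted.

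LDL1, which acts with LDL2 and FLD on flowering genes and with the SUVR5 protein, had its highest mean in cxs ldl2 and its lowest in sxc. The values were 19.2, 20.8, and 17.9 CPM in WT, 15.9, 14.4, and 17.9 CPM in sxc, and 15.9, 20.2, and 17.6 CPM in cxs. In sxc ldl2 they were 18.5, 20.9, and 13.9 CPM, and in cxs ldl2 they were 20.4, 28.3, and 17.5 CPM. The highest value of 28.3 CPM was that of the replicate 2 that stood apart, and all other libraries of the experiment lay at or below 20.9 CPM. The parents lay close together, at 17.1 to 19.8 CPM in suvh4/5/6, 17.2 to 18.4 CPM in suvh4/5/6 ldl2, 16.7 to 17.5 CPM in cmt2/3, and 16.9 to 18.7 CPM in cmt2/3 ldl2. Between cxs ldl2 and cxs, the log2 fold change of LDL1 was 0.30 (SE = 0.15, 95% interval, -0.01 to 0.62), with an edgeR adjusted p of 0.253, and it was 0.09 (adjusted p = 0.981) without that replicate. Between cxs and sxc, over both LDL2 states, it was 0.23 (95% interval, 0.01 to 0.46), with an edgeR adjusted p of 0.326, and 0 of 4 members were called, against 0.00595% of all genes. Without the same replicate it was 0.12 (adjusted p = 0.795). The value of LDL2 in this comparison of the reciprocal crosses was 0.19 with this replicate and turned to -0.01 without it. Against WT, the estimates for LDL1 ran from -0.27 in sxc, in which all libraries lay below those of WT (as for 8.99% of genes with a mean of at least 1 CPM), to 0.19 in cxs ldl2, which turned to -0.02 without the same replicate. In cmt2/3, LDL1 also lay wholly below WT, as did 15.9% of these genes.

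FLD varied the least with genotype. It had 22.7, 19.9, and 21.5 CPM in WT, 22.2, 20.6, and 20.3 CPM in suvh4/5/6, and 24.9, 21.4, and 24.3 CPM in suvh4/5/6 ldl2, the genotype with its highest mean. All 27 libraries lay between 19.3 and 24.9 CPM. The genotype means of the 4 ldl2 genotypes (22.2 to 23.5 CPM) were the 4 highest of the 9, and their libraries overlapped those of the other genotypes. The ldl2 effect on FLD over the 4 backgrounds was 0.09 and not called, and the share of all genes with such an order was not counted. Against WT, the log2 fold change of FLD was between -0.02 in suvh4/5/6 and 0.14 in suvh4/5/6 ldl2, and the 95% intervals of the 8 comparisons reached from -0.25 to 0.37.

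LDL3, which has the longest protein of the family, had 39.4, 41.1, and 37.8 CPM in WT. It had 37.9, 34.4, and 41.2 CPM in sxc, the genotype with its lowest mean, and 43.9, 43.2, and 40.7 CPM in cmt2/3 ldl2, the genotype with its highest. The 3 libraries of suvh4/5/6 ldl2, at 43.8, 41.1, and 42.7 CPM, lay above all 3 WT libraries, as did 18.8% of genes with a mean of at least 1 CPM. The log2 fold change against WT was -0.06 in sxc, 0.11 in cmt2/3 ldl2, and 0.11 in suvh4/5/6 ldl2, and the 95% intervals of the 8 comparisons reached from -0.27 to 0.32.

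The 8 mutant genotypes of the experiment share the same 3 WT libraries, and none of the 4 members was called in any of these comparisons. The share of all genes called was 2.61% in suvh4/5/6, 3.95% in suvh4/5/6 ldl2, 3.67% in cmt2/3, and 1.23% in cmt2/3 ldl2. Among the F1 it was 0.857% for sxc, 0.78% for cxs, 1.78% for sxc ldl2, and 1.39% for cxs ldl2. The most negative estimates were those of LDL2 in sxc ldl2 (-0.51) and cmt2/3 ldl2 (-0.46), in both of which all libraries lay below those of WT, as for 8.53% and 10.6% of genes with a mean of at least 1 CPM. LDL2 in cxs was at -0.01. Between the parents, suvh4/5/6 minus cmt2/3, no member was called (0.679% of all genes), with values from -0.09 for LDL2 to 0.08 for LDL1. Between the F1 and the mean of their parents, no member was called without ldl2 (0.717% of all genes) or with ldl2 (2.55%). The largest values there were -0.09 for LDL3 without ldl2 and 0.16 for LDL1 with ldl2, which was 0.05 without replicate 2 of cxs ldl2. The ldl2 effect in the F1 minus that in the parents was 0.22 for LDL1 (0.11 without that replicate) and -0.04 for FLD, and no member was called (0.0208% of all genes).

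**Figure D3:**
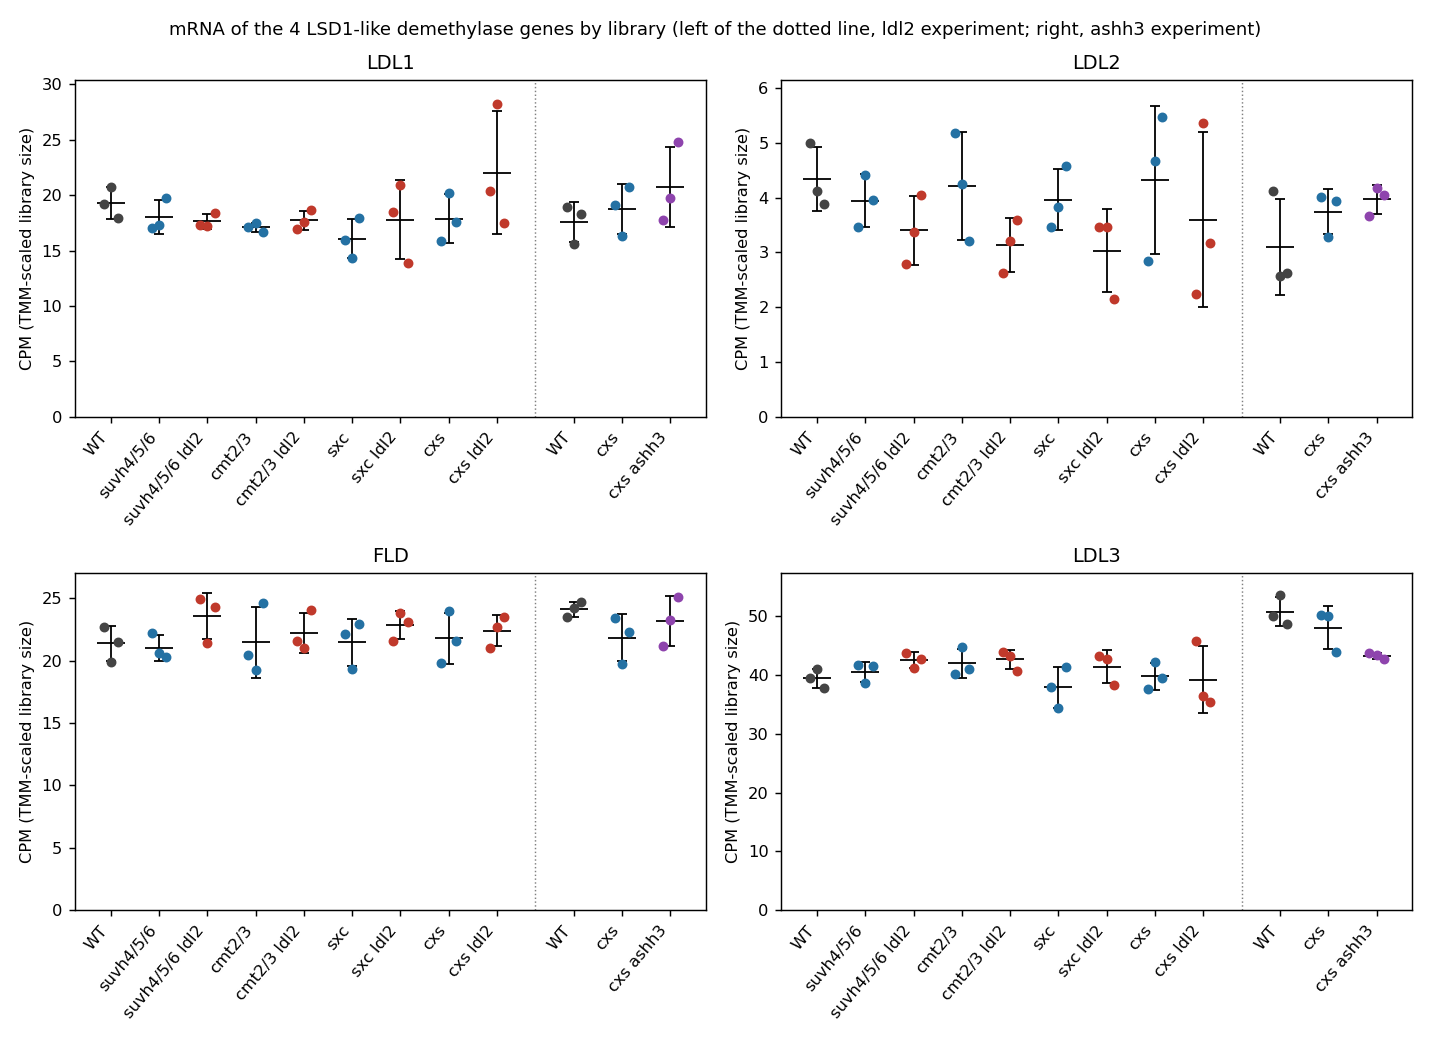
CPM of LDL1, LDL2, FLD, and LDL3 in each library (points), with the mean and SD of the 3 libraries of each genotype (lines); the dotted line separates the experiment with ldl2 from that with ashh3. In the experiment with ldl2, genotypes next to each other in the order of their means overlap, LDL3 in cxs ashh3 lies below cxs and WT, and the highest LDL1 value, 28.3 CPM, is replicate 2 of cxs ldl2.

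In the experiment with ashh3, LDL3 had 50.04, 53.6, and 48.7 CPM in WT, 50.2, 49.9, and 43.8 CPM in cxs, and 43.7, 43.3, and 42.7 CPM in cxs ashh3. The 3 libraries of cxs ashh3 lay below all libraries of cxs and of WT. Of the genes with a mean of at least 1 CPM, 9.45% lay wholly lower in this way in cxs ashh3 than in cxs and 15.3% lower than in WT, so such a separation was common. The log2 fold change of LDL3 was -0.23 between cxs ashh3 and WT (SE = 0.10, 95% interval, -0.43 to -0.03), with an edgeR adjusted p of 0.222, and no member was called, against 5.43% of all genes. Between cxs ashh3 and cxs, it was -0.15 (95% interval, -0.35 to 0.05) with an adjusted p of 0.642, and again no member was called (1.06% of all genes, which is 357 genes, and 162 with a filter on low counts). Between cxs and WT, it was -0.08, and FLD was at -0.14, with its 3 cxs libraries (23.4, 19.8, and 22.3 CPM) below those of WT (23.5, 24.2, and 24.7 CPM), as for 13.3% of genes with a mean of at least 1 CPM. No member was called in that comparison either, against 5.63% of all genes. LDL2 had 4.11, 2.57, and 2.62 CPM in WT, 4.02, 3.28, and 3.94 CPM in cxs, and 3.67, 4.18, and 4.05 CPM in cxs ashh3. These ranges overlapped, and its log2 fold change was 0.09 between cxs ashh3 and cxs and 0.36 between cxs ashh3 and WT (95% interval, -0.20 to 0.91). LDL1 had 18.9, 15.6, and 18.3 CPM in WT, 19.1, 16.3, and 20.8 CPM in cxs, and 17.8, 19.8, and 24.8 CPM in cxs ashh3, with log2 fold changes of 0.15 against cxs and 0.24 against WT. That of FLD between cxs ashh3 and cxs was 0.09. ASHH3 itself had 21.8, 20.7, and 16.1 CPM in WT, 15.7, 17.5, and 19.0 CPM in cxs, and 13.2, 12.8, and 11.5 CPM in cxs ashh3. It was called lower in cxs ashh3 than in WT (log2 fold change of -0.64, SE = 0.15, edgeR adjusted p = 0.00965) and not against cxs (-0.48, adjusted p = 0.171).

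**Figure D4:**
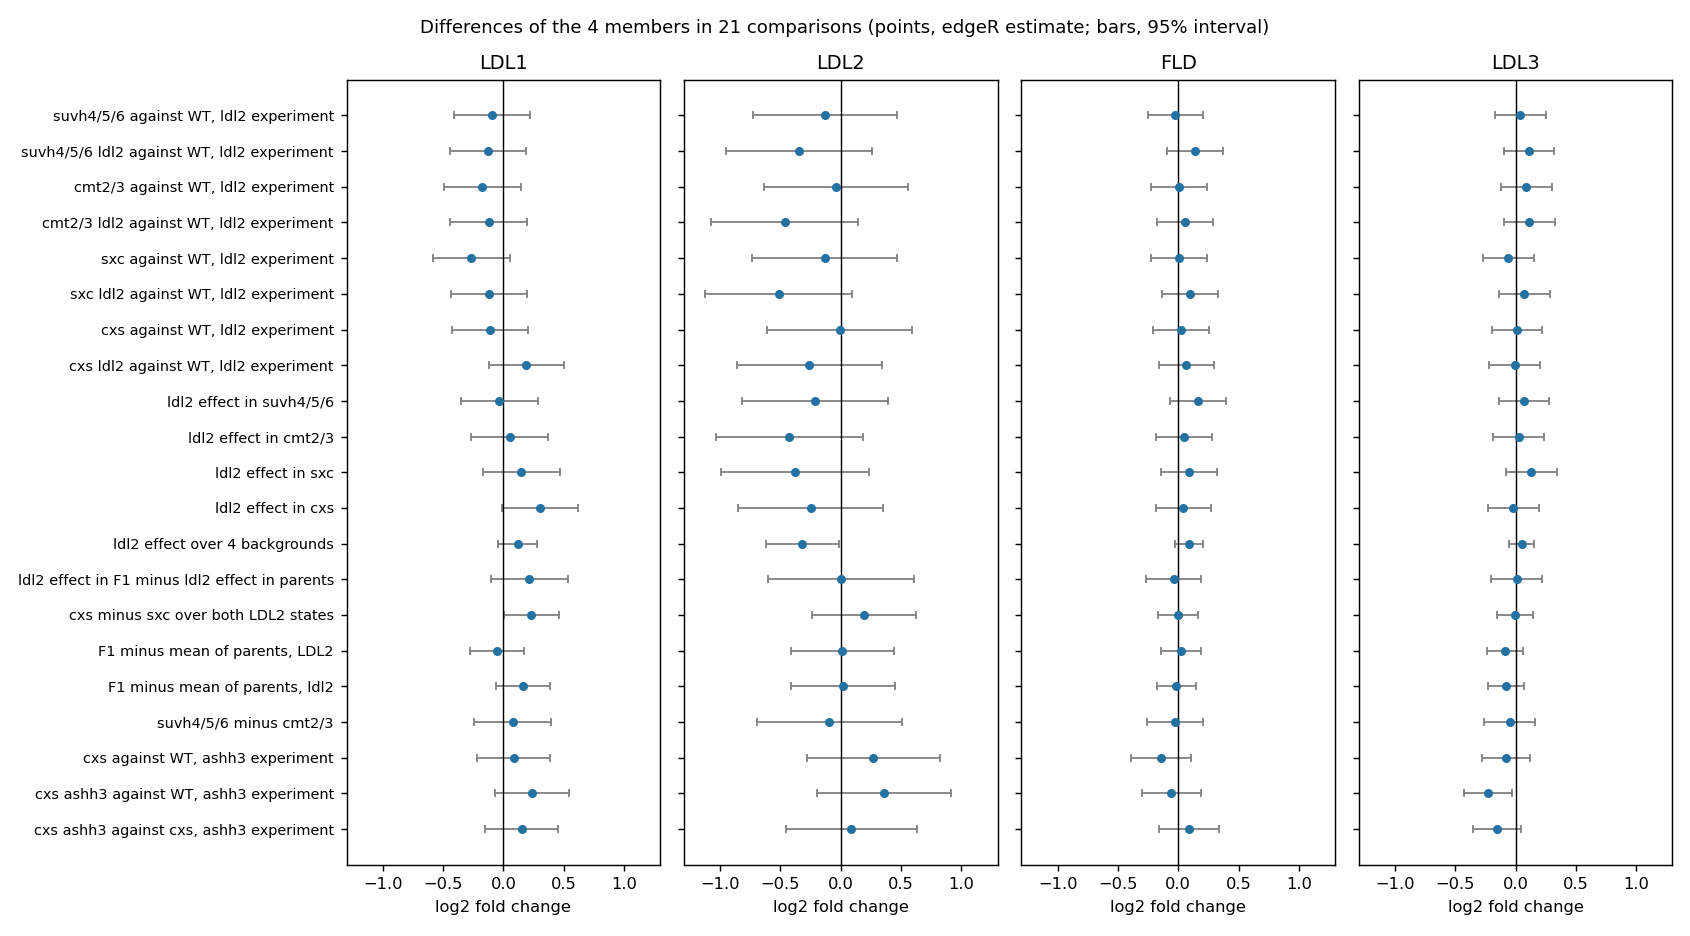
Log2 fold change (points, edgeR estimate) of each member in the 21 comparisons, with a 95% interval derived from the edgeR F statistic (bars). None of the 84 values was called, and they lie between -0.51 and 0.36.

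Genes that work with or against the family were taken from lists that were chosen with earlier results of these data known, and their counts of calls stand beside 0.00595 to 5.63% of all genes called in the 21 comparisons. Of the 8 genes for proteins that act in complexes with the demethylases (HDA6, HDA5, FVE, MSI5, LD, APRF1, SUVR5, and ASHH1), 1 was called in 1 of the 21 comparisons. An unadjusted p under 0.05 in edgeR was found in 27 of the 168 tests of this list. HDA5, a histone deacetylase that acts with FLD, was lower in the F1 with ldl2 than the mean of the ldl2 parents. Its log2 fold change there was -0.38 (SE = 0.10, edgeR adjusted p = 0.0496), with 1.18% of all genes called lower. HDA5 had 34.2, 27.8, and 30.6 CPM in sxc ldl2 and 33.3, 19.7, and 22.6 CPM in cxs ldl2. It had 38.4, 40.8, and 41.0 CPM in suvh4/5/6 ldl2 and 32.7, 34.6, and 31.1 CPM in cmt2/3 ldl2. Its lowest value was in replicate 2 of cxs ldl2, and without that library the value was -0.30 with an adjusted p of 0.155. The call was lost on leaving out any 1 of 10 of the 12 libraries compared, with values from -0.51 to -0.30. None of the 4 RNA-processing genes of the autonomous pathway (FCA, FY, FPA, and FLK) was called in any of the 21 comparisons (13 of 84 tests had an unadjusted p under 0.05 in edgeR). None of the 7 genes for H3K4 methyltransferases, the enzymes that write the mark, was called either, with values from -0.28 to 0.27 and an unadjusted p under 0.05 in 9 of 147 tests. The tests of these lists share libraries, and the share of all genes with an unadjusted p under 0.05 was not counted. Of the 6 JmjC genes for H3K4 demethylases, which form the other class of enzymes that remove the mark, JMJ18 was called. It was lower in cxs ashh3 than in WT (log2 fold change of -0.58, SE = 0.13, edgeR adjusted p = 0.00819), where 3.39% of all genes were called lower. JMJ18 had 32.1, 30.5, and 30.2 CPM in cxs ashh3 against 40.4, 43.9, and 54.6 CPM in WT. Without replicate 3 of WT, it was at -0.44 with an adjusted p of 0.0709. IBM1, the JmjC demethylase of H3K9 in the pathway upstream of LDL2, was called lower than WT in all 8 mutant genotypes, with log2 fold changes of -0.74 to -1.23, at 28.8, 31.7, and 29.4 CPM in WT against 10.6 to 20.99 CPM in the 24 mutant libraries. These 8 comparisons share the WT libraries, and 0.0655 to 1.36% of all genes were called lower in them. In the fit of the compared groups alone, the adjusted p of IBM1 was 0.0566 in sxc ldl2 and 0.0584 in cxs ldl2. IBM1 was also called lower in cxs (-0.51) and cxs ashh3 (-0.71) of the other experiment, where 3.25% and 3.39% of all genes were called lower. The call in cxs was lost on leaving out any 1 of 4 of the 6 libraries (edgeR adjusted p of up to 0.0838).

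Of the 6 genes reported as repressed by LDL1, LDL2, or FLD, FLC, MAF4, MAF5, and TOC1 were called in at least 1 comparison, and FWA and DOG1 in none. The share of all genes called in at least 1 comparison was not counted. FLC, the MADS-box repressor of flowering, was called higher with ldl2 over the 4 backgrounds (log2 fold change of 1.17, SE = 0.27, edgeR adjusted p = 0.0483, with 0.414% of all genes called higher). It had 0.848, 0.784, and 0.610 CPM in WT, 1.37, 0.233, and 0.471 CPM in suvh4/5/6, and 3.16, 2.13, and 3.22 CPM in suvh4/5/6 ldl2. The values were 1.67, 1.98, and 0.679 CPM in cmt2/3 and 2.36, 1.76, and 0.998 CPM in cmt2/3 ldl2. In sxc they were 1.16, 0.898, and 1.85 CPM, and in sxc ldl2 they were 3.17, 4.71, and 1.53 CPM. In cxs they were 1.34, 1.55, and 0.537 CPM, and in cxs ldl2 they were 2.74, 3.10, and 1.75 CPM. All 3 ldl2 libraries lay above all 3 without ldl2 in suvh4/5/6 and cxs, and the ranges overlapped in cmt2/3 and sxc. Of genes with a mean of at least 1 CPM, 5.17% lay wholly higher with ldl2 in suvh4/5/6 and 5.53% in cxs. The estimates per background were 2.01, 0.24, 1.28, and 1.13 in suvh4/5/6, cmt2/3, sxc, and cxs, and none of these was called alone. FLC lay below 1 CPM in WT and in some mutant libraries, which is few reads at these library sizes. The call over 4 backgrounds was lost on leaving out any 1 of 17 of the 24 libraries compared (adjusted p of up to 0.132), with values from 1.06 to 1.41, and in the fit of the compared groups alone (adjusted p = 0.0705). FLC was also called higher in suvh4/5/6 ldl2 than in WT (1.91, edgeR adjusted p = 0.0488), with 2.94% of all genes called higher. This call was lost on leaving out any 1 of the 6 libraries (edgeR adjusted p from 0.0732 to 0.2).

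MAF5 and MAF4 are FLC-related MADS-box genes that lie side by side, and reads of such related genes may be split between them in the counts. MAF5 was called higher than WT in all 8 mutant genotypes, with log2 fold changes of 2.91 to 4.44, from 1.32, 1.18, and 0.610 CPM in WT to 17.7, 22.4, and 26.5 CPM in cxs ldl2, its highest genotype. These 8 comparisons share the same 3 WT libraries, and 0.711 to 2.94% of all genes were called higher in them. MAF4 was called in 6 of the 8, with log2 fold changes of 2.56 to 3.43, and not in suvh4/5/6 (2.13) or cmt2/3 (1.78). Its calls in sxc, cxs, and cmt2/3 ldl2 were lost on leaving out replicate 2 or 3 of WT (adjusted p from 0.112 to 0.314) or some of the mutant libraries. Over the 4 backgrounds, the ldl2 effect was 0.79 for MAF4 (adjusted p = 0.342) and 0.42 for MAF5 (adjusted p = 0.385), and neither was called. In the experiment with ashh3, MAF5 had 1.33, 1.17, and 0.907 CPM in WT, 18.8, 17.1, and 19.1 CPM in cxs, and 3.55, 5.33, and 2.20 CPM in cxs ashh3. It was called higher than WT in both and lower in cxs ashh3 than in cxs (log2 fold change of -2.29, SE = 0.23, adjusted p = 9.4e-06, and 0.00118 with a filter on low counts). Of all genes, 2.37% were called higher than WT in cxs and 2.04% in cxs ashh3. Between cxs ashh3 and cxs, 0.506% were called lower. The seed markers CRA1 and CRC, 2 of the 3 seed markers, were also called higher in cxs than in WT and lower in cxs ashh3 than in cxs, and the summed seed marker level was 0.702 to 9.67 CPM in WT, 2.74, 15.9, and 116 CPM in cxs, and 0.314 to 0.463 CPM in cxs ashh3. On leaving out any 1 of the 6 libraries, the replicate 3 of cxs with the highest seed marker level included, the value of MAF5 was -2.67 to -2.03. The call was kept. The other cxs libraries, at 2.74 and 15.9 CPM of seed markers, still lay above those of cxs ashh3. Whether seed RNA had a part in the MAF5 difference was not tested. MAF4 was called higher than WT in both (3.02 and 2.31), with 0.111, 0.585, and 0.705 CPM in WT, 2.35, 4.72, and 4.77 CPM in cxs, and 1.84, 3.45, and 1.85 CPM in cxs ashh3. Its WT values are few reads at these library sizes, so these fold changes are imprecise. FLC had 0.463 to 1.81 CPM in the 9 libraries of that experiment and was not called. TOC1, a clock gene, was called higher in the F1 with ldl2 than the mean of the ldl2 parents. Its log2 fold change there was 0.41 (SE = 0.10, edgeR adjusted p = 0.0318), with 1.37% of all genes called higher. That call was lost on leaving out any 1 of 7 of the 12 libraries (edgeR adjusted p of up to 0.0938). The ldl2 effect of TOC1 over the 4 backgrounds was 0.10 and not called.

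**Figure D5:**
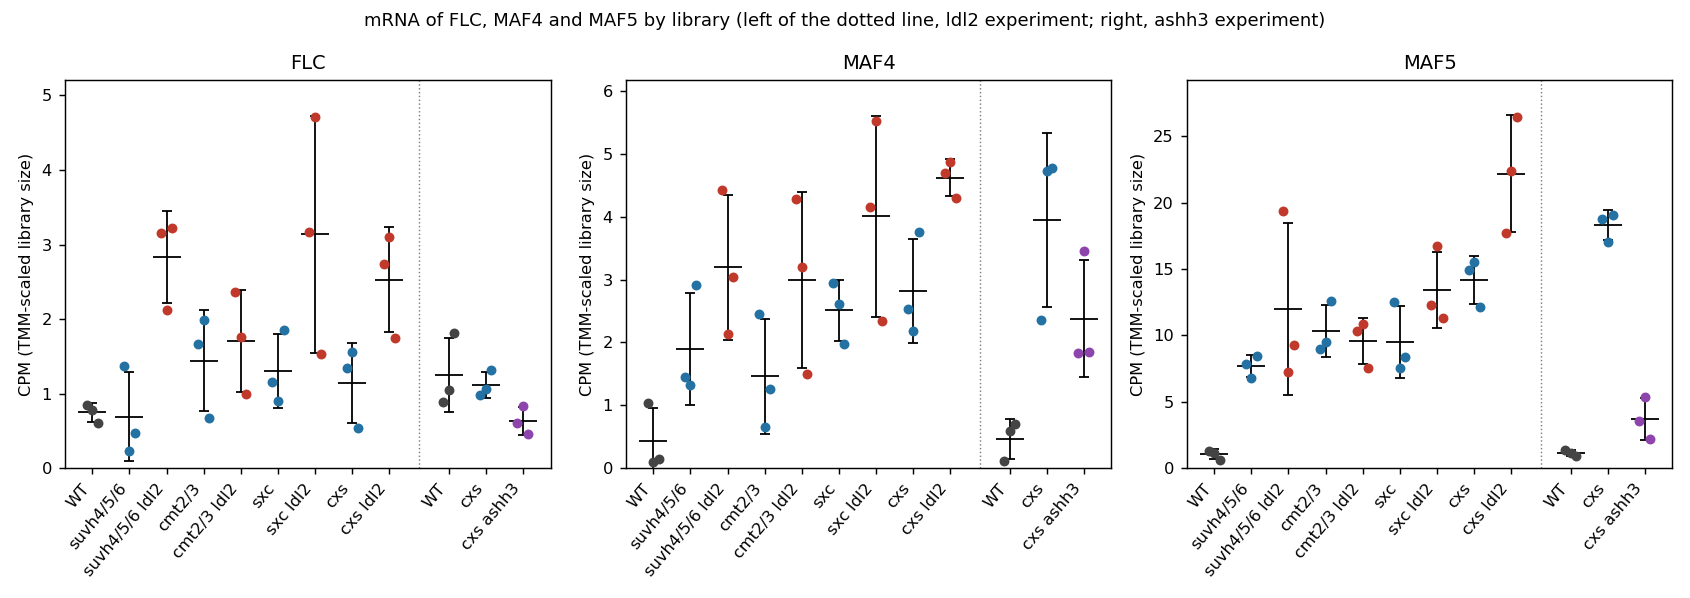
CPM of FLC, MAF4, and MAF5 in each library (points), with the mean and SD of each genotype (lines); the dotted line separates the experiment with ldl2 from that with ashh3. MAF5 lies between 0.610 and 1.32 CPM in WT of the first experiment and reaches 26.5 CPM in cxs ldl2.

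The genes with the pattern most like each member were ranked by Pearson's r of log2 CPM (prior count of 2) over the 27 libraries. The search covered 19025 genes that were counted on their sense strand and had a mean of at least 1 CPM. The r values are descriptions over points that share libraries, picked as the highest among these genes. For LDL1 they were AT4G21445 (r = 0.85), AT1G09390 (0.84), and MYB94 (0.82), and without replicate 2 of cxs ldl2 the same genes gave 0.73, 0.74, and 0.75. The genes that then led were LUT2 (0.83), AT4G24790 (0.81), and CYCA2;3 (0.80). For LDL2 they were AT1G80980 (0.68), ZPR4 (0.66), and AT3G17380 (0.66), and without that library CIP8 (0.73), AT4G38310 (0.72), and AT2G47690 (0.69) led in their place. Those of FLD were AT3G12730 (0.65), AT4G20840 (0.61), and MYB96 (0.60), and AT3G12730 stayed first without that library (0.66). Those of LDL3 were scpl25 (0.82), AT4G28240 (0.80), and AT5G05200 (0.78), and AT5G03880 (0.82) was first without it. By Spearman's rank correlation, other genes led for LDL1 (AT2G13690, 0.81), FLD (CIPK26, 0.67), and LDL3 (AT5G37360, 0.86). For LDL2, AT1G80980 stayed first (0.67). Between pairs of members, r over the 27 libraries was from -0.22 for LDL2 and LDL3 to 0.42 for LDL1 and LDL2. LDL1 and LDL2 were both at their highest or next to it in replicate 2 of cxs ldl2. Over the 9 genotype means, r was from -0.77 for LDL2 and FLD to 0.45 for FLD and LDL3. It was -0.10 there for LDL1 and LDL2.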

How the data were processed

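The authors made the deposited count tables from mRNA of whole seedlings (KAPA mRNA HyperPrep libraries, 150-base paired ends with 50 bases clipped) with STAR against TAIR10, keeping raw counts per gene without normalization, and for each gene the strand with the larger sum. The tables of the 2 experiments were analysed separately. Counts were scaled by TMM and tested with edgeR 4.0.16 (quasi-likelihood F test, 1 mean per genotype, all genotypes of an experiment in 1 fit, no filter on low counts) in R 4.3.3, with Benjamini-Hochberg adjustment over 33602 genes and calls at an adjusted p under 0.05. The SE was derived from the log2 fold change and its F statistic. Intervals are at 95% for the estimated difference, from this SE and the t distribution. CPM used TMM-scaled totals, and TPM used exon lengths of RefSeq. The alternatives were relative log expression size factors, filterByExpr, a likelihood ratio test, DESeq2 1.42.0, the compared groups alone, a replicate block, and leaving out each library. The scripts were tested on simulated data, where the fit without a filter made more false calls than that with filterByExpr for cxs ashh3 against cxs. The members and gene lists were chosen with earlier results of these data known. Genes named are the members, the listed genes with a call, and the 3 genes most like each member. There were 12 tables of single libraries whose names match no sample label, and 16 samples whose labels disagree on genotype, and neither was used here.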

Additional observations from a re-analysis of the deposited data

Results flagged for a closer look

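No member of the family was flagged. For 3 of the 38 member and list genes searched, every library with ldl2 moved one way in suvh4/5/6 and the opposite way in cmt2/3, relative to the range of the same background without ldl2, and the difference between the backgrounds was not tested. Among genes with a mean of at least 1 CPM, 1.57% met the same rule for these 2 backgrounds, and 4.18% for any pair of the 4 backgrounds. FPA, an RNA-binding protein of the autonomous pathway, had 49.2, 50.4, and 48.0 CPM in suvh4/5/6 and 71.7, 50.9, and 56.1 CPM in suvh4/5/6 ldl2 (log2 fold change of 0.27), and 63.4, 59.6, and 56.6 CPM in cmt2/3 and 46.2, 47.4, and 55.7 CPM in cmt2/3 ldl2 (-0.27). FVE, which acts with FLD and HDA6, had 57.5, 59.0, and 55.2 CPM in suvh4/5/6 and 51.7, 53.3, and 50.4 CPM with ldl2 (-0.15), and 46.8, 52.7, and 50.5 CPM in cmt2/3 and 54.9, 58.8, and 56.5 CPM with ldl2 (0.18). MSI5, a close relative of FVE, had 7.40, 6.67, and 6.97 CPM in suvh4/5/6 and 6.14, 5.67, and 6.44 CPM with ldl2 (-0.21), and 3.51, 4.72, and 6.02 CPM in cmt2/3 and 6.64, 6.72, and 7.29 CPM with ldl2 (0.54).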

How the results depend on the processing

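None of the 4 members was called in any of the 306 alternative fits of the 21 comparisons, and the smallest adjusted p of a named member difference over all settings was 0.115 (edgeR or DESeq2, by setting). Of 576 alternative values of these differences, 567 kept their direction and 9 changed sign, all of them far from the threshold. In the fit of the compared groups alone, LDL2 in cxs against WT was at 0.0027. On leaving out 1 library in turn, it ranged from -0.22 to 0.23. The same ranges were -0.072 to 0.022 for FLD in suvh4/5/6 against WT, -0.12 to 0.0099 for LDL3 in sxc against WT, -0.022 to 0.33 for LDL1 in cxs ldl2 against WT, -0.25 to 0.082 for LDL2 in suvh4/5/6 minus cmt2/3, and -0.012 to 0.31 for LDL2 in cxs minus sxc. The 2 lower ends at -0.022 and -0.012 were reached without replicate 2 of cxs ldl2, and the cause was not tested. Of 450 alternative values of the list genes that were called, 68 lost the call and none changed sign. The number of all genes called moved more. It was 357 for cxs ashh3 against cxs and 162 with filterByExpr, and 856 for the F1 minus their parents with ldl2, from 121 with the compared groups alone to 4500 on leaving out 1 library. With DESeq2, 502 genes were called between cxs and sxc against 2, 1821 for ldl2 in cxs against 34, and 302 for ldl2 in cmt2/3 against 21, where the compared groups alone gave 1630. In the experiment with ldl2, deviations of same-numbered libraries had a median correlation of 0.01 over 108 pairs. The correlations ran from -0.66 to 0.66, with 35 pairs over 0.1, and 12 of 27 libraries were closest to their own number. Whether some libraries shared a batch was not tested. With the replicate block, 0 of 4 members were called in each comparison, and 1823 genes for cxs ashh3 against WT became 1473. HDA5 lost its call with the replicate block (adjusted p = 0.051 in edgeR) and with the compared groups alone (0.207). LDL2 had 22 to 64 counts in a library, which limits its precision.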
